A study of Mus musculus with 24 samples.

Results

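Oxidative phosphorylation is the work of 5 protein complexes of the inner mitochondrial membrane, and the nuclear genes that encode their subunits were followed here as a group. Members were the genes whose mouse symbols begin as the subunit families do: Nduf for complex I, Sdh for complex II, Uqcr for complex III, Cox4 to Cox8 for complex IV and Atp5 for complex V, with names of pseudogenes dropped. This gave 84 of the 25229 genes in the table, with 37 in complex I, 4 in complex II, 8 in complex III, 18 in complex IV and 17 in complex V. Of these, 78 had enough reads to be tested. The rule works on symbols, so that Ndufa4, whose product is now placed in complex IV, was counted with complex I, and Cox7a2l, which encodes a factor of respiratory supercomplexes, was counted with complex IV. It left out Cyc1, the gene of cytochrome c1, a subunit of complex III, so that counts and sums of complex III lack it.

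The cells were labelled ID8 P53 KO, a mouse ovarian cancer line with a knockout of Trp53 that all groups share. Trp53 reads were present in every library, at 21.6 to 32.0 CPM (the scaled count defined further on) in DMSO, 35.1 to 42.9 after cisplatin, 18.7 to 22.2 after AU-15330 and 26.4 to 35.5 in the combination, so that the knockout rests on the labels and was not checked by these counts. Cultures received DMSO, the vehicle, cisplatin at 750 nM, AU-15330 at 2.5 uM, or both drugs together (the combination), for 6 days, with 6 libraries in each group and 24 in all. The dose of cisplatin is the one on the labels, and the methods of the study name another for this line. Cisplatin is a platinum drug that cross-links DNA, and AU-15330 is a PROTAC, a molecule that marks the SWI/SNF ATPases SMARCA4 and SMARCA2 for degradation. AU-15330 acts on protein, so the Smarca4 transcript does not report on its action, and no line with intact Trp53 was part of the comparison. The labels do not say whether replicates were separate cultures, and if they were not, p-values measure only the technical spread between these libraries.

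Complexes I and II pass electrons from NADH and succinate to coenzyme Q, complex III hands them on to cytochrome c, complex IV reduces oxygen, and complex V uses the resulting proton gradient to make ATP. Each of complexes I, III, IV and V joins nuclear-encoded subunits to partners encoded in mitochondrial DNA, whereas complex II is entirely nuclear-encoded. Several subunits of complex IV come as pairs of genes, one expressed widely and one found mainly in heart and muscle, lung or testis. Subunit c of complex V, which forms the rotating ring, is encoded by the genes Atp5g1, Atp5g2 and Atp5g3. The mitochondrially encoded subunits were not analysed here.

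The Atp5g genes are shown first because they moved differently while encoding the same mature subunit. The last 90 coding bases before the stop codon are given below from the GENCODE M21 transcripts, with capitals at the 24 positions where the genes differ. Atp5g1 lies at chr11:96068852-96075670, Atp5g2 at chr15:102662864-102672352 and Atp5g3 at chr2:73908447-73911326 (mm10, all on the minus strand).
Atp5g1: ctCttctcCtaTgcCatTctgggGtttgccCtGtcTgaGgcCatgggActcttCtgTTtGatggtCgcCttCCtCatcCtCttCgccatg
Atp5g2: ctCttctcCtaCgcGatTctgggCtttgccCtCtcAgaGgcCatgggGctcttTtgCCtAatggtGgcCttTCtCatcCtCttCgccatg
Atp5g3: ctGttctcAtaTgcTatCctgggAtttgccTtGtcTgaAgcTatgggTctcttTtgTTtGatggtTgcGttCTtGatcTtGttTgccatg
Over the whole coding sequence, Atp5g1 and Atp5g2 shared 68.9% of aligned bases, and either shared 67.4% with Atp5g3. The longest run in common was 20 bases, well below the read length of 70 bases, so that reads from these coding sequences could be told apart.

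Upstream sequence is given for a pair of members that were higher after AU-15330, Ndufa4 and Atp5g1, and for a pair that were lower after all 3 treatments, Cox7a2l and Uqcrh. Each stretch is the 120 bases closest to the RefSeq start that hold no annotated exon (GRCm38.p6, which shares its coordinates with mm10), 5′ to 3′ on the strand of the gene, with any match to the NRF1, ETS or YY1 letters given further on in capitals. The stretch of Cox7a2l is upstream of the RefSeq start only. It lies inside the gene as GENCODE places it, chr17:83501918-83517330.
Ndufa4, chr6:11907498-11907617, minus strand: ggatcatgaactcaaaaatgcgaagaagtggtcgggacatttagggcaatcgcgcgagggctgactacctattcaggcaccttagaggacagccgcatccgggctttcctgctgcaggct
Atp5g1, chr11:96075671-96075790, minus strand: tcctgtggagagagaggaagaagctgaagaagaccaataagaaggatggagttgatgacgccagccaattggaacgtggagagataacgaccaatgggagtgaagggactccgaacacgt
Cox7a2l, chr17:83514334-83514453, minus strand: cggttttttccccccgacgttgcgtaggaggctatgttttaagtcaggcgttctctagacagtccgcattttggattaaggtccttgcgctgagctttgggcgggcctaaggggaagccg
Uqcrh, chr4:116075072-116075191, minus strand: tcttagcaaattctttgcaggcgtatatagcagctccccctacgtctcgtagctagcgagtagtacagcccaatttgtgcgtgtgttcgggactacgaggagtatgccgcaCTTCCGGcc

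Library totals ranged from 17592588 to 25260009 reads assigned to genes, so that 3 reads corresponded to 0.12 to 0.186 CPM (the count scaled to the size of the library with the TMM factors of edgeR). The subunit genes took 0.655% to 1.12% of all reads. Markers of the cell type were present in part: Wt1 and Msln, found on ovarian surface cells and ovarian cancers, and the keratin Krt8 were at 794 CPM or more, 418 CPM or more and 289 CPM or more in the 6 DMSO libraries, whereas Epcam was at or near 0. Of 6 markers of leukocytes and endothelium, 5 stayed below the count filter, and Pecam1 was at 2.83 to 4.23 CPM in DMSO, 8.24 to 12.4 after cisplatin and under 0.911 with AU-15330. The list of 7 identity markers also held Krt7, Krt18 and Krt19, whose levels are not given here. All 6 tested identity markers were lower after AU-15330, with a median log2 fold change of -2.29, and in the combination against cisplatin (-2.01) and against DMSO (-1.83). Of all genes tested 37.2%, 32.7% and 36.5% were lower in these comparisons. After cisplatin 4 of the 6 markers were higher, with a median of 0.22, as were 4 in the combination against AU-15330 (0.455). Of all genes tested 26% and 22.2% were higher there. The part of these moves of markers in the results was not tested.

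The replicate 1 libraries stood apart for these genes. Replicate 1 held the highest of the 6 values for 69 of the 78 tested members in DMSO, 63 in cisplatin, 67 in AU-15330 and 67 in the combination, against 26.5%, 25.2%, 29.3% and 30.8% of all genes tested. On the log2 scale, the median member lay 0.66, 0.44, 0.23 and 0.25 above the median of the other 5 libraries in these groups, while the median over all genes tested was 0.02 in DMSO, -0.04 in cisplatin and at most 0.002 in the others. Cytosolic ribosomal protein genes showed the same excess, with medians of 0.39, 0.50, 0.31 and 0.35, as did mitochondrial ribosomal protein genes, with 0.38, 0.35, 0.19 and 0.24. Other libraries deviated too. Against the median of all 6 libraries the median member stood at 0.251 in DMSO replicate 5 and 0.274 in cisplatin replicate 2. Replicate 1 stood at 0.595 and 0.391 by this measure, and replicate 6 at -0.211 and -0.196. Leaving out replicate 1 keeps the others in. What set the libraries apart was not tested. Total counts of called members and ratios of complex sums are given with and without replicate 1. Other results are from all 24 libraries unless stated.

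**Figure D1:**
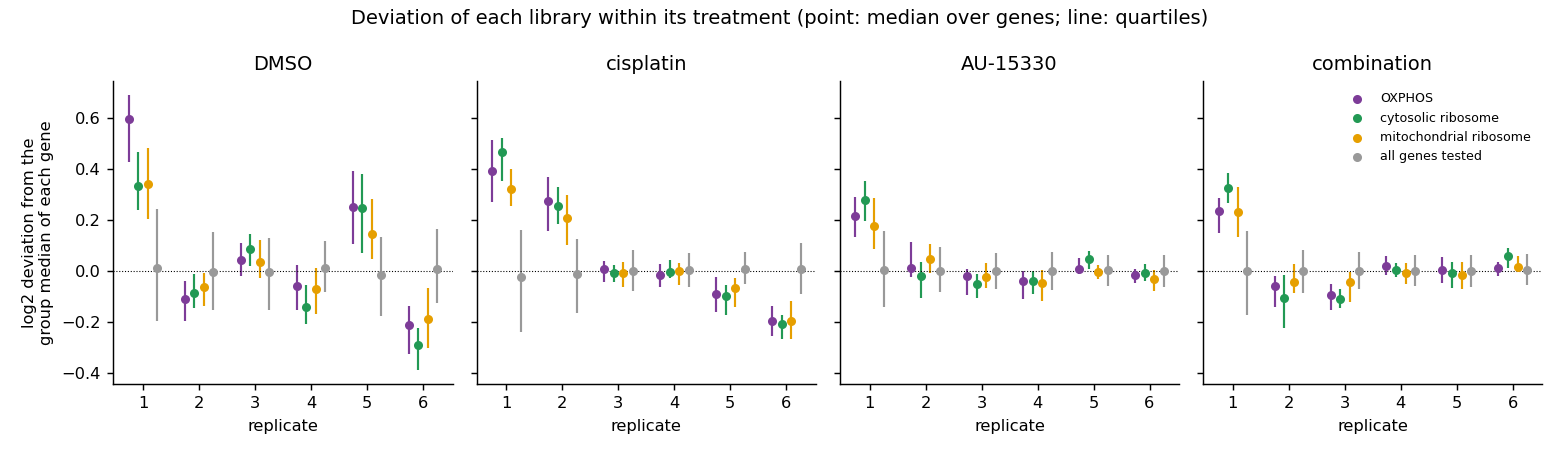
Deviation of each library (x axis, replicate number) from the median of its treatment, in log2 CPM (y axis), as the median (points) and quartiles (lines) over the subunit genes (OXPHOS), the cytosolic and mitochondrial ribosomal protein genes and all genes tested. Replicate 1 is high for the 3 gene groups in each treatment, and in DMSO its median for subunit genes is 0.595, while the points for all genes sit near 0.

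Summed over members, the subunit genes reached 7314 CPM at the lowest, 8409 at the median and 12141 at the highest in DMSO. The 6 sums after cisplatin were 6673 at the lowest, 7423 at the median and 9388 at the highest. AU-15330 libraries had 8543, 8852 and 10135 CPM, and combination libraries 7971, 8579 and 9936 CPM. The groups overlapped, and the spread was wider in DMSO and cisplatin, with a coefficient of variation of 19.7% and 13.3%, than in AU-15330 and the combination, with 6.51% and 8.19%. Without replicate 1 these were 12.4%, 9.8%, 2.4% and 3.92%. In RNA from whole cultures, fewer cells of a kind and less RNA per cell cannot be told apart.

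By complex, the ratio of mean sums for cisplatin against DMSO was 0.856 in complex I, 0.772 in complex II, 0.839 in complex III, 0.885 in complex IV and 0.868 in complex V. Without replicate 1 these ratios were 0.887, 0.795, 0.858, 0.918 and 0.883. Complex II was the one in which cisplatin and DMSO libraries did not overlap, with 506 to 545 CPM after cisplatin and 606 to 805 CPM in DMSO. For AU-15330 against DMSO the ratio ran from 0.916 in complex III to 1.05 in complex V, and for the combination against cisplatin from 1.02 in complex IV to 1.17 in complex V. Without replicate 1 these ran from 0.959 to 1.08 and from 1.04 to 1.18, with the ends in the same complexes. No test was run on these sums.

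**Figure D2:**
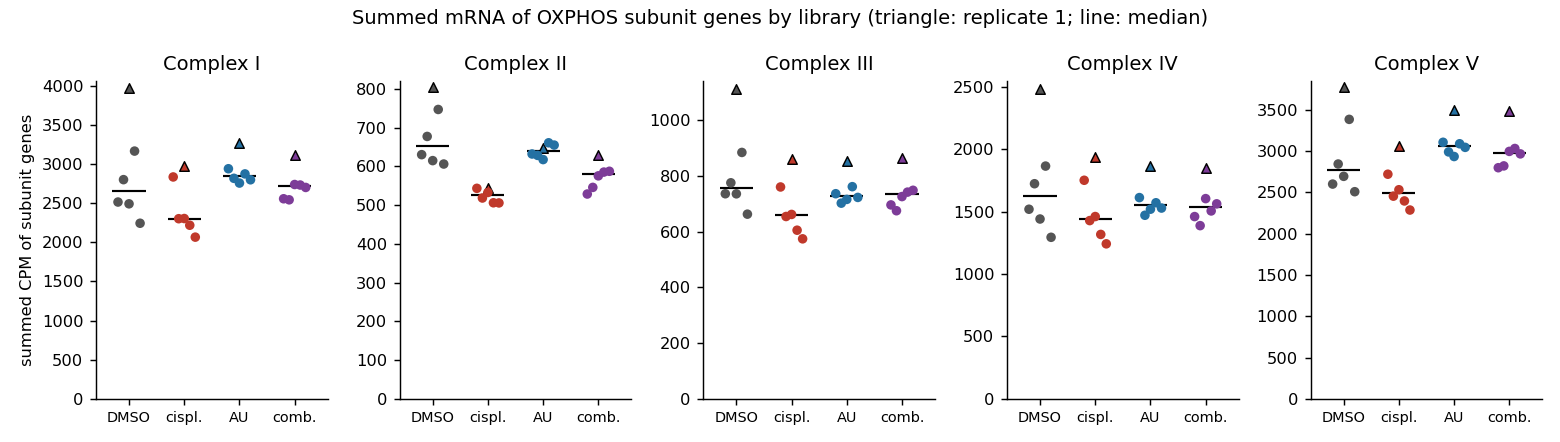
Summed CPM of the subunit genes of each complex (y axis) in every library of DMSO, cisplatin (cispl.), AU-15330 (AU) and the combination (comb.), with replicate 1 as triangles and the group median as a line. In complex II the cisplatin libraries, at 506 to 545 CPM, lie below all DMSO libraries, and replicate 1 is the highest point in every panel and group except complex II after AU-15330.

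Single genes were compared with the quasi-likelihood F test of edgeR, in 1 fit of 24 libraries, and a gene was called at a Benjamini-Hochberg adjusted p below 0.05 over the 12941 genes tested. Cisplatin against DMSO called 30 of 78 members (38.5%), with 1 higher and 29 lower. Over all genes tested the same comparison called 51.7%, of which 26% were higher and 25.7% lower. AU-15330 against DMSO called 10 members higher and 13 lower, or 29.5%, where 73.4% of all genes were called, 36.2% higher and 37.2% lower. The combination against cisplatin called 21 members higher and 1 lower, or 28.2%, beside 68.1% of all genes, 35.4% higher and 32.7% lower. Against AU-15330, the combination had 1 member higher and 6 lower, 8.97% beside 41.7%, with 22.2% of all genes higher and 19.5% lower. In the combination against DMSO, 9 members were higher and 18 lower, 34.6% beside 73.3%, with 36.8% of all genes higher and 36.5% lower.

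In this fit the share of members called was below that of all genes in each comparison, and the difference of the shares was not tested. For cisplatin against DMSO the order turned without the low-count filter, with 37.3% of members beside 36% of all genes, and the shares were nearly equal by the DESeq2 Wald test, at 34.9% and 34.8%. The combination against cisplatin called fewer members in 3 alternatives: 16 with DESeq2 size factors, 15 by the DESeq2 Wald test and 14 without the filter. These were 20.5%, 18.1% and 16.9% of members, beside 67.5%, 45.8% and 47.7% of all genes. The calls lay mostly in 1 direction in 3 comparisons: lower after cisplatin alone, higher when AU-15330 was added to cisplatin, and lower when cisplatin was added to AU-15330. These comparisons share libraries: the cisplatin group enters the first and the second, and the combination the second and the last. The share of lower members after cisplatin, 29 of 78, exceeded the 25.7% of all genes, whereas the share of higher members in the combination against cisplatin, 21 of 78, was below the 35.4% of all genes. Among genes with an average log2 CPM of 5 or more, which better match the level of most members, 31.4% were lower after cisplatin and 35.9% were higher in the combination against cisplatin.

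Libraries of AU-15330 and the combination with the same replicate number deviated together, and with the number as a block the combination against AU-15330 called 4 members higher and 13 lower (21.8%, beside 47.8% of all genes). The 7 members called without the block were among them. Those gained were Ndufa8 (0.26), Sdhd (0.20) and Uqcrq (0.37), which were higher, and Atp5a1 (-0.17), Atp5g2 (-0.28), Ndufa13 (-0.23), Ndufb11 (-0.24), Ndufs8 (-0.24), Ndufv1 (-0.17) and Uqcrh (-0.32), which were lower, all on the log2 scale. The block also raised the calls in the other comparisons. Cisplatin against DMSO then called 36 members (46.2%, beside 56.8% of all genes) and AU-15330 against DMSO 34 (43.6%, beside 77%). The combination called 30 against cisplatin (38.5%, beside 71.8%) and 39 against DMSO (50%, beside 76.4%). Values of single genes given further on are from the fit without the block.

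The changes were small. After AU-15330, 87.2% of members stayed within 0.5 of DMSO on the log2 scale, beside 47.6% of all genes tested and 57.8% of genes with a log2 CPM of 5 or more. In the combination against DMSO the shares were 85.9%, 47.9% and 58.2%, and against cisplatin 93.6%, 53.9% and 64.5%. After cisplatin the members (83.3%) were close to the well-expressed genes (82.5%), with all genes at 69.6%. In the combination against AU-15330 the shares were 97.4% of members, 86.4% of well-expressed genes and 75.9% of all genes. Apart from Cox6a2, no member moved by more than 1.09 on the log2 scale in any of the 5 comparisons.

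**Figure D3:**
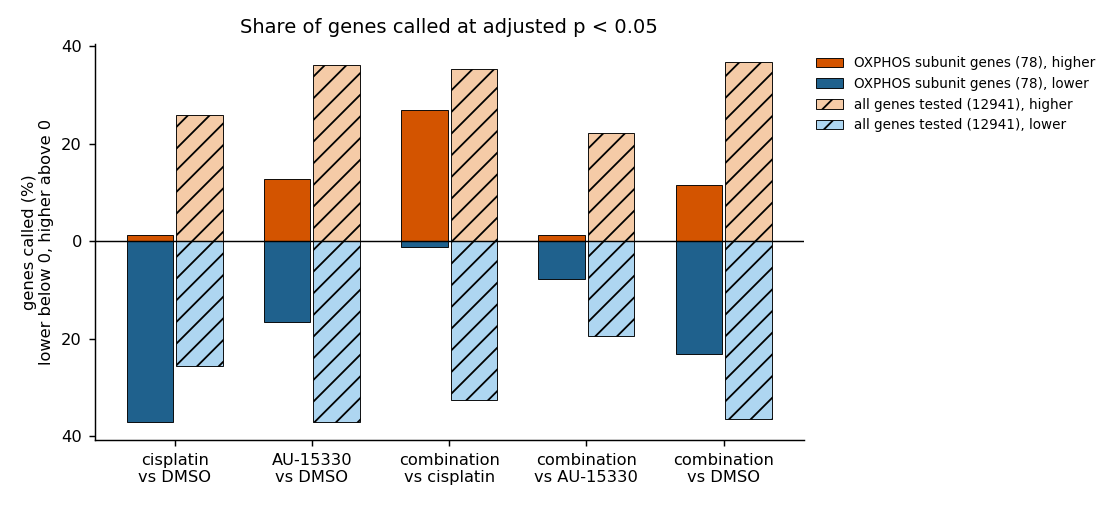
Share of genes called (y axis, percent, higher above and lower below 0) in the 5 comparisons of treatments, for the 78 tested subunit genes (filled bars) and all 12941 genes tested (hatched bars). Calls of subunit genes run from 8.97% to 38.5% and those of all genes from 41.7% to 73.4%, and the calls of subunit genes are nearly all lower for cisplatin against DMSO (29 of 30) and nearly all higher for the combination against cisplatin (21 of 22).

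The median log2 fold change of members was -0.18 after cisplatin, -0.07 after AU-15330, 0.11 in the combination against cisplatin, -0.04 in the combination against AU-15330 and -0.08 in the combination against DMSO, where the medians of all genes tested lay within 0.04 of 0. With library totals as the only scaling, the median of all genes rose to 0.13 for AU-15330 and 0.14 for the combination against DMSO, and the members' medians turned to 0.06 and 0.07, which left them below that shift. The split of calls turned as well, to 20 higher and 7 lower for AU-15330 and to 18 higher and 11 lower for the combination against DMSO, under a scaling that moved the genes at large upward too. The direction after cisplatin (21 lower, 1 higher), in the combination against cisplatin (26 higher, 1 lower) and against AU-15330 (5 lower, 1 higher) was the same under that scaling. Library totals called 28.2%, 34.6%, 34.6%, 7.69% and 37.2% of members in the 5 comparisons, in the order of the medians above. The shares of all genes were 50.3%, 74.1%, 69.5%, 41% and 74.2%. Without replicate 1 the counts were 3 higher and 31 lower for cisplatin, 19 higher and 11 lower for AU-15330, 23 higher and 2 lower for the combination against cisplatin, 2 higher and 14 lower against AU-15330, and 13 higher and 24 lower against DMSO. These were 43.6%, 38.5%, 32.1%, 20.5% and 47.4% of members, beside 52.7%, 74.8%, 69.2%, 43.4% and 74.5% of all genes.

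Cytosolic ribosomal protein genes, which shared the excess of replicate 1, moved with the subunit genes after cisplatin: 62 of 78 were lower and the median log2 fold change was -0.48. After AU-15330, 54 were lower, with a median of -0.41, and in the combination against cisplatin 14 were higher, with a median of 0.10. All genes tested had 25.7% lower after cisplatin, 37.2% lower after AU-15330 and 35.4% higher in the combination against cisplatin. Of 78 mitochondrial ribosomal protein genes, 23 were lower after cisplatin, 16 lower and 14 higher after AU-15330, and 45 higher in the combination against cisplatin, with medians of -0.11, 0.07 and 0.28. Their part in the changes of the subunit genes was not tested.

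**Figure D4:**
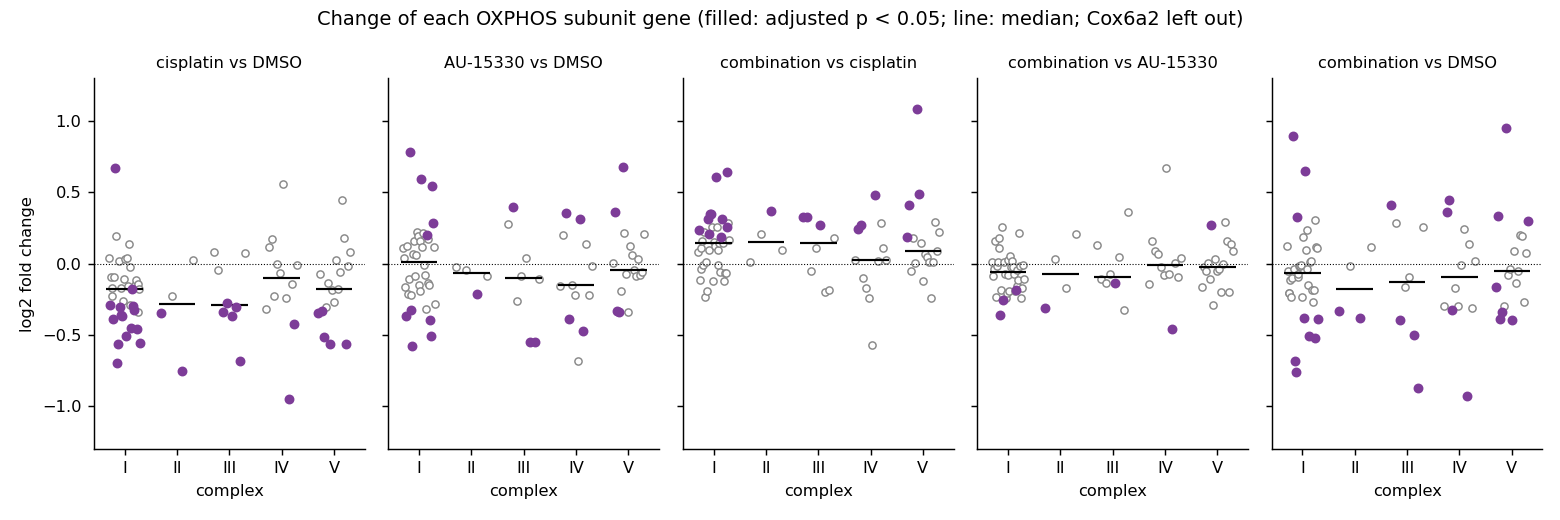
Log2 fold change (y axis) of each tested subunit gene by complex (x axis) in the 5 comparisons, with genes called at an adjusted p below 0.05 filled and the median of each complex as a line; Cox6a2, whose changes reach -6.44, is left out. Most points of the cisplatin panel lie below 0, and Atp5g1 stands highest, at 1.09, in the panel of the combination against cisplatin.

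By complex, the share of members called after cisplatin was 41.7% in complex I, 50% in II, 62.5% in III, 23.1% in IV and 29.4% in V, beside 51.7% of all genes (25.7% lower). After AU-15330 these shares were 27.8%, 25%, 37.5%, 38.5% and 23.5%, beside 73.4%, and in the combination against cisplatin 27.8%, 25%, 37.5%, 30.8% and 23.5%, beside 68.1% (35.4% higher). Complexes II and III have 4 and 8 members, so that 1 gene moves their shares by a wide step.

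In complex I, cisplatin lowered 14 of 36 tested members and raised 1, with a median of -0.18, where 25.7% of all genes were lower and 26% higher. AU-15330 raised 5 and lowered 5, where 36.2% and 37.2% of all genes were called. The combination had 10 higher than cisplatin, 3 lower than AU-15330 (Ndufa6, Ndufa9 and Ndufs1), and 3 higher (Ndufa4, Ndufb6 and Ndufa8) and 6 lower than DMSO. Of all genes 35.4% were higher than cisplatin, 19.5% lower than AU-15330, and 36.8% higher and 36.5% lower than DMSO. The call of Ndufa8 (edgeR adjusted p = 0.0276) was lost without the low-count filter (0.0856). Among core subunits, Ndufs1, which carries iron-sulfur clusters of the electron path, had 108, 117 and 137 CPM as the lowest, median and highest in DMSO and 95.1, 108 and 114 after cisplatin. The combination had 116, 121 and 128 CPM and did not overlap cisplatin, with AU-15330 at 124, 139 and 148. Ndufs1 was lower after cisplatin (log2 fold change -0.17 ± 0.065 SE, edgeR adjusted p = 0.0268) and higher after AU-15330 (0.20 ± 0.065, adjusted p = 0.00852). Its difference between the combination and cisplatin (0.19 ± 0.065, adjusted p = 0.0138) was not called without replicate 1 (adjusted p = 0.0555) or without the low-count filter (adjusted p = 0.0815), and that between cisplatin and DMSO was not called when scaled by library totals (adjusted p = 0.249).

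Ndufs8, another iron-sulfur core subunit (chr19:3908863-3912774, minus strand), ranged from 47.0 to 87.5 CPM in DMSO with a median of 56.3, and from 37.1 to 69.1 with a median of 44.5 after cisplatin. It ranged from 76.6 to 112 CPM after AU-15330, median 83.5, and from 68.0 to 91.1, median 71.7, in the combination. Replicate 1 was the highest library in each group, and without it the 4 ranges narrowed enough that AU-15330 lay above DMSO. Ndufs8 was higher after AU-15330 (log2 fold change 0.55 ± 0.14 SE, edgeR adjusted p = 0.00148) and in the combination against cisplatin (0.64 ± 0.15, adjusted p = 0.000328). Ndufv1, the NADH-binding subunit, followed with 0.28 ± 0.084 and 0.26 ± 0.084 (adjusted p = 0.00356 and 0.00814).

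Ndufa4 was the one member raised by cisplatin and had the largest increase after AU-15330. Its gene lies at chr6:11900292-11907497 on the minus strand, and none of its 70-base windows occurred in another annotated gene. DMSO libraries had 73.9, 96.3 and 129 CPM as the lowest, median and highest, cisplatin 128, 149.6 and 219, AU-15330 150.3, 168 and 203, and the combination 159.8, 178 and 226. Every AU-15330 and combination library was above every DMSO library, and cisplatin overlapped DMSO by its lowest library. The log2 fold change against DMSO was 0.67 ± 0.13 for cisplatin, 0.79 ± 0.13 for AU-15330 and 0.89 ± 0.13 for the combination (edgeR adjusted p = 8.37e-05, 4.28e-06 and 6.09e-07). The combination did not pass the test against either drug alone (adjusted p = 0.117 and 0.516, with 95% intervals from -0.03 to 0.48 and from -0.15 to 0.37).

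The accessory subunits Ndufa6 and Ndufa7 went the other way. Ndufa6 had a median of 174 CPM in DMSO (119.8 to 254), 107 after cisplatin (89.6 to 140.5), 141 after AU-15330 (132 to 158) and 112 in the combination (101 to 117). Its combination libraries lay below all DMSO and all AU-15330 libraries. Ndufa6 was lower after cisplatin (log2 fold change -0.69 ± 0.14 SE, edgeR adjusted p = 0.000116) and in the combination against AU-15330 (-0.36 ± 0.13, adjusted p = 0.0334), and the decrease after AU-15330 alone (-0.33 ± 0.13, adjusted p = 0.0317) was not called without replicate 1 (adjusted p = 0.18) or with library totals (adjusted p = 0.188). Ndufa7 was lower by a like amount with either drug, -0.57 ± 0.13 for cisplatin and -0.58 ± 0.13 for AU-15330 (adjusted p = 0.000979 and 0.000425), and by -0.76 ± 0.13 in the combination against DMSO (adjusted p = 1.62e-05).

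Ndufb6, a membrane-arm accessory subunit, was near 23.3 CPM in DMSO (21.7 to 33.8) and 24.1 after cisplatin (21.9 to 33.4), and 39.7 after AU-15330 (33.6 to 43.4) and 38.9 in the combination (36.2 to 45.3). The combination did not overlap DMSO or cisplatin, and AU-15330 touched DMSO only at replicate 1 of the latter. The log2 fold changes were 0.59 ± 0.12 for AU-15330 against DMSO and 0.61 ± 0.12 for the combination against cisplatin (edgeR adjusted p = 6.44e-05 and 5.24e-05). Of its exonic bases 39.0% overlap Smim27 on the other strand, and since the strand setting of the counting is not given, a share of the reads may belong to that gene.

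Complex II had 4 members, Sdha to Sdhd, which encode the flavoprotein, the iron-sulfur subunit and the membrane anchors that oxidise succinate. Cisplatin lowered Sdha and Sdhc, and did not pass the test for Sdhb (log2 fold change -0.23 ± 0.12, adjusted p = 0.103) or Sdhd (0.02 ± 0.089, adjusted p = 0.854). Sdha (chr13:74322254-74350280, minus strand) was at 306, 324 and 355 CPM in DMSO and 243, 258 and 269 after cisplatin, as the lowest, median and highest. AU-15330 libraries had 305, 318 and 337 CPM and combination libraries 240.0, 261 and 273, so that both cisplatin-treated groups lay below both groups without cisplatin. The log2 fold change was -0.34 ± 0.052 for cisplatin against DMSO and -0.31 ± 0.052 for the combination against AU-15330 (edgeR adjusted p = 4.44e-06 and 3.04e-05), with AU-15330 against DMSO at -0.02 ± 0.052 (adjusted p = 0.674).

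Sdhc (chr1:171127165-171150603, minus strand) fell from 159, 179 and 248 CPM in DMSO to 100.3, 113 and 130 after cisplatin, again with no overlap. AU-15330 had 159, 164 and 175 CPM, and the combination lay between, at 135, 144.5 and 163. The difference was -0.75 ± 0.09 for cisplatin against DMSO, -0.38 ± 0.09 for the combination against DMSO and 0.37 ± 0.09 for the combination against cisplatin (edgeR adjusted p = 1.29e-07, 0.00045 and 0.000774). AU-15330 alone gave -0.21 ± 0.09 (adjusted p = 0.0346), a call that was lost without replicate 1 (adjusted p = 0.0846) and with library totals as the scaling (adjusted p = 0.415). Sdha and Sdhc thus both fell with cisplatin, but in the presence of AU-15330 the cisplatin difference of Sdhc was -0.17 ± 0.09 (adjusted p = 0.132), and the interaction term passed the test for Sdhc and not for Sdha (0.58 ± 0.13, adjusted p = 0.00093, and 0.03 ± 0.073, adjusted p = 0.751).

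In complex III, cisplatin lowered 5 of 8 members and AU-15330 lowered 2 and raised 1, Uqcr11 (0.40). Of all genes 25.7% were lower after cisplatin, and 37.2% lower and 36.2% higher after AU-15330. Uqcrh, the hinge protein at the cytochrome c site (chr4:116066965-116075071, minus strand), had 87.2, 119.7 and 230.5 CPM in DMSO, where the highest was replicate 1. It had 66.8, 79.3 and 105.5 after cisplatin, 81.2, 91.7 and 103 after AU-15330, and 62.7, 75.6 and 83.3 in the combination. Only the combination cleared the DMSO range. The log2 fold change against DMSO was -0.69 ± 0.16 for cisplatin, -0.55 ± 0.16 for AU-15330 and -0.87 ± 0.16 for the combination (edgeR adjusted p = 0.000963, 0.00367 and 3.25e-05), and without replicate 1 it was -0.55, -0.39 and -0.75, each still called.

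Uqcrfs1, the Rieske iron-sulfur protein (chr13:30540308-30545362, minus strand), was at 74.3 to 129 CPM in DMSO, 71.4 to 90.3 after cisplatin, 60.1 to 81.2 after AU-15330 and 59.2 to 85.4 in the combination, with medians of 97.7, 79.1, 64.8 and 68.1. All 4 ranges overlapped. It was lower with AU-15330 (-0.55 ± 0.11, edgeR adjusted p = 0.000117) and in the combination against DMSO (-0.50 ± 0.11, adjusted p = 0.000314), and the smaller decrease with cisplatin (-0.30 ± 0.11, adjusted p = 0.0269) was not called when scaled by library totals (adjusted p = 0.0982). Uqcrc1, a core protein of the complex, was called lower with cisplatin (-0.27 ± 0.086, adjusted p = 0.0092, and 0.0646 by library totals), and its AU-15330 difference of -0.09 ± 0.085 did not pass the test (adjusted p = 0.358). The combination was higher than cisplatin in 3 members, Uqcrc2 (0.27), Uqcr10 (0.33) and Uqcr11 (0.33), and lower than AU-15330 in 1, Uqcrc2 (-0.14). The calls of Uqcr10 and Uqcr11 were lost without the low-count filter (adjusted p = 0.0608 and 0.0941) and by the DESeq2 Wald test (0.0641 and 0.106), that of Uqcr11 also with DESeq2 size factors (0.0786), and that of Uqcrc2 against AU-15330 with library totals (0.0549).

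**Figure D5:**
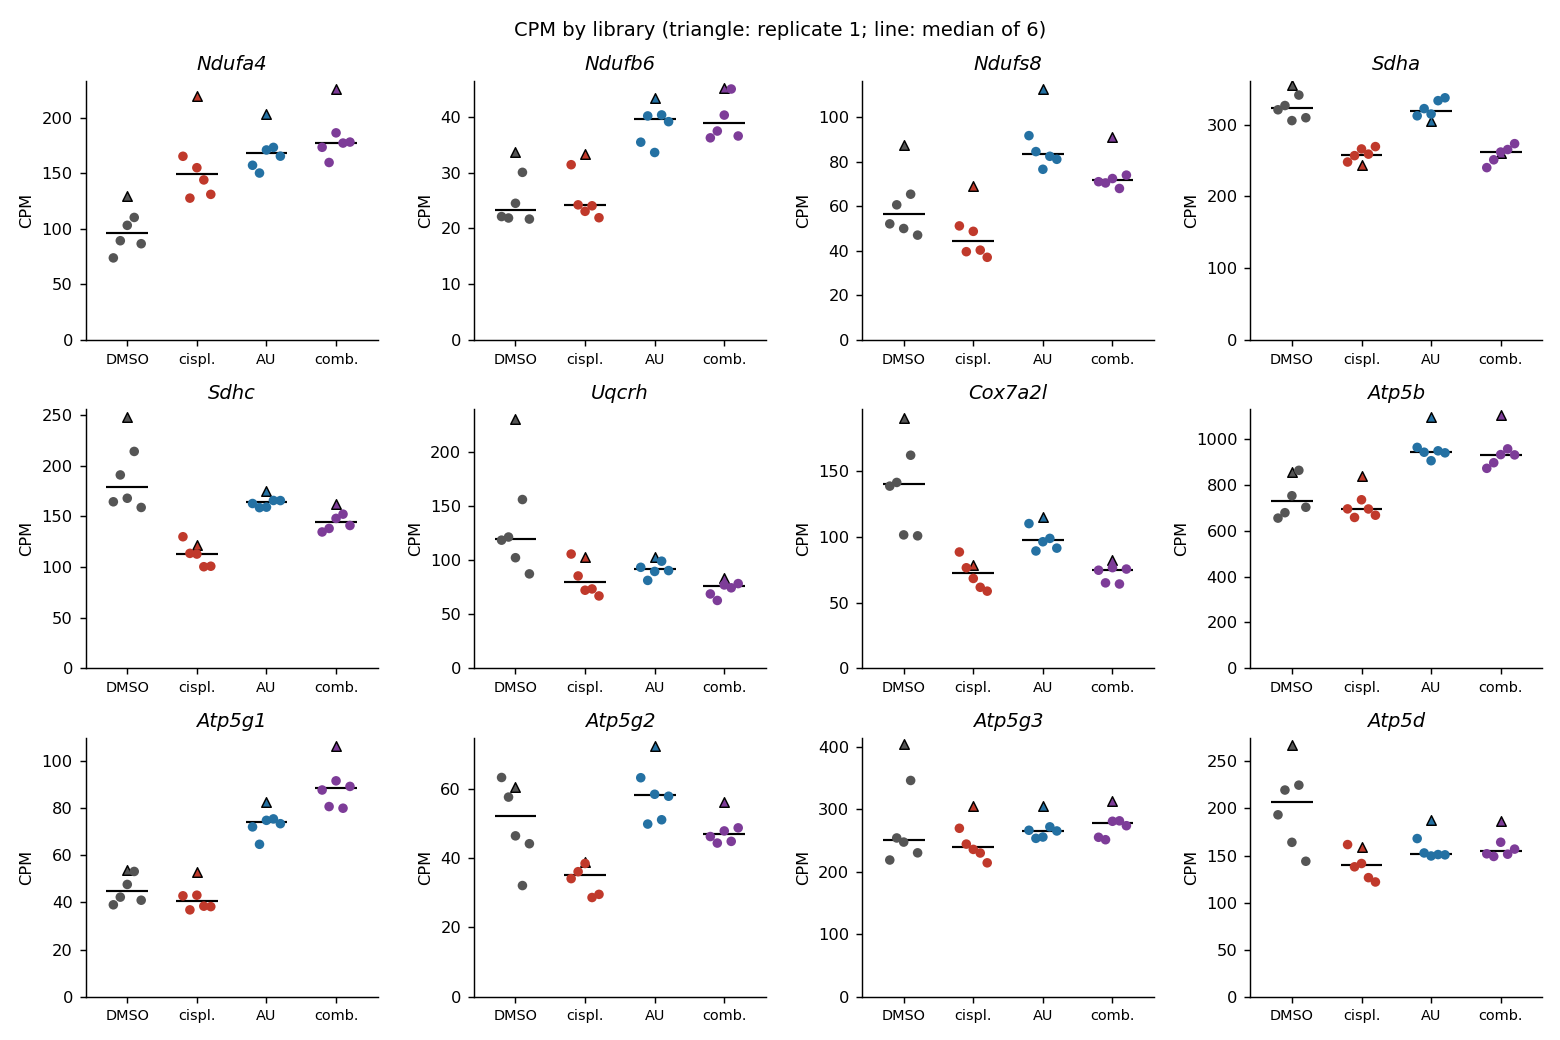
CPM (y axis, from 0) of 12 subunit genes in every library of DMSO, cisplatin (cispl.), AU-15330 (AU) and the combination (comb.), with replicate 1 as triangles and the median of 6 as a line. Ndufa4 is higher in all treated groups, Sdha is lower in both groups that received cisplatin, and Atp5g1 is higher in both groups that received AU-15330 and highest in the combination.

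Complex IV had 18 members, of which 13 were tested. Among the paired genes the widely expressed forms made up nearly all the reads: Cox4i1, Cox6a1, Cox6b1, Cox7a2, Cox7b and Cox8a had medians of 316, 278, 149, 61.0, 86.8 and 237 CPM in DMSO. Their tissue-restricted partners were low or absent. Cox4i2 had at most 8 reads in a library, Cox7b2 9, Cox6b2 3, and Cox8b and Cox8c 1 each, which put them below the filter. Cox7a1, the muscle form of subunit 7a, was at 1.22 to 4.14 CPM in DMSO, 1.32 to 4.41 after cisplatin, 1.04 to 1.43 after AU-15330 and 1.29 to 3.23 in the combination, and passed no test (adjusted p from 0.0532 upwards in the 5 comparisons). Of the widely expressed forms, only Cox6a1 and Cox7a2 were called in any comparison.

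Cox6a1 was lower with AU-15330 (log2 fold change -0.39 ± 0.15, edgeR adjusted p = 0.0184) and in the combination against DMSO (-0.33 ± 0.15, adjusted p = 0.0469), calls that were lost when scaled by library totals (adjusted p = 0.114 and 0.262). Cox7a2 went from 50.4 to 93.6 CPM in DMSO and 47.4 to 70.3 after cisplatin to 73.7 to 86.9 after AU-15330 and 65.8 to 83.9 in the combination. It was higher with AU-15330 (0.31 ± 0.12, adjusted p = 0.0203) and in the combination against cisplatin (0.48 ± 0.12, adjusted p = 0.0009). For Cox4i1, Cox6b1, Cox7b and Cox8a the differences lay between -0.32 and 0.28 and did not pass.

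Cox6a2, the heart and muscle form of subunit 6a (chr7:128205435-128206387, minus strand), was present at a low level and fell with every treatment. DMSO libraries had 0.742, 6.07 and 12.98 CPM as the lowest, median and highest, the lowest being replicate 1, for 800 reads in all. Cisplatin libraries had 0.587, 0.691 and 1.03 CPM (102 reads), combination libraries 0.0455, 0.226 and 0.287 CPM (24 reads), and AU-15330 libraries 0 to 0.18 CPM (9 reads in 6 libraries). AU-15330 and the combination did not overlap DMSO or cisplatin, while cisplatin overlapped DMSO at replicate 1. The fitted log2 fold change against DMSO was -3.15 ± 0.46 for cisplatin, -6.44 ± 0.66 for AU-15330 and -5.11 ± 0.57 for the combination (edgeR adjusted p = 2.96e-06, 2.02e-09 and 9.12e-09). With so few reads in the latter groups, the size of those values depends on the fit, and the combination against AU-15330 did not pass (1.33 ± 1.04, adjusted p = 0.321). Cox6a1, at a median of 208 CPM after AU-15330, was by far the more abundant form in every group.

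Cox7a2l, the supercomplex factor related to subunit 7a (chr17:83501918-83517330, minus strand), had the largest decrease after cisplatin and in the combination against DMSO among members other than Cox6a2. It was at 101, 140.0 and 190.3 CPM in DMSO, and at 58.7, 72.4 and 88.5 after cisplatin. AU-15330 libraries had 89.3, 97.6 and 115 CPM and combination libraries 64.2, 75.1 and 82.4. Both groups with cisplatin lay below DMSO without overlap, and the combination lay below AU-15330 as well. The log2 fold change against DMSO was -0.95 ± 0.13 for cisplatin, -0.47 ± 0.13 for AU-15330 and -0.93 ± 0.13 for the combination (edgeR adjusted p = 8.91e-07, 0.00176 and 4e-07), and the combination differed from AU-15330 by -0.46 ± 0.13 (adjusted p = 0.00562) but not detectably from cisplatin (0.02 ± 0.13, adjusted p = 0.9, 95% interval -0.24 to 0.28). Of its 70-base windows 14.3% also occur in Gm6969, so that some of its reads may have been assigned elsewhere.

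In complex V, cisplatin lowered 5 of 17 members, and the combination was higher than cisplatin in 4: Atp5g1, Atp5g2, Atp5b and Atp5a1 (0.18; adjusted p = 0.0208, and 0.00341 to 0.105 over the alternatives). These were 29.4% and 23.5% of the members of complex V. Of all genes 25.7% were lower after cisplatin and 35.4% higher in the combination against cisplatin. Atp5g1, as shown above one of 3 genes for subunit c, had 39.0, 45.0 and 53.7 CPM in DMSO and 36.9, 40.6 and 52.8 after cisplatin. AU-15330 libraries rose to 64.7, 74.1 and 82.8 CPM and combination libraries to 80.0, 88.5 and 106. Both groups with AU-15330 lay above both groups without it. The log2 fold change was 0.68 ± 0.094 for AU-15330 against DMSO, 1.09 ± 0.095 for the combination against cisplatin and 0.95 ± 0.095 for the combination against DMSO (edgeR adjusted p = 4.35e-07, 1.29e-10 and 1.22e-09). Cisplatin alone gave -0.13 ± 0.095 (adjusted p = 0.25), whereas on top of AU-15330 it gave 0.27 ± 0.093 (adjusted p = 0.0208, and 0.0748 without the low-count filter).

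The other subunit c genes were not called for AU-15330 against DMSO, and Atp5g2 was called higher in the combination than in cisplatin, as Atp5g1 was. Atp5g2 had a median of 52.0 CPM in DMSO (32.1 to 63.3), 35.1 after cisplatin (28.7 to 39.0), 58.2 after AU-15330 (49.8 to 72.5) and 47.1 in the combination (44.4 to 56.1). It was lower with cisplatin (-0.56 ± 0.13, edgeR adjusted p = 0.00061) and higher in the combination than in cisplatin (0.49 ± 0.13, adjusted p = 0.0015, no overlap), and did not pass for AU-15330 against DMSO (0.21 ± 0.13, adjusted p = 0.126). Of its 70-base windows 36.3% occur in other annotated genes. Atp5g3, with a median of 251 CPM in DMSO (219 to 405), 240.1 after cisplatin, 266 after AU-15330 and 277 in the combination, passed in none of the comparisons, and its differences lay between -0.18 and 0.14.

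Atp5b, the catalytic beta subunit of the F1 head (chr10:128083273-128090391, plus strand), was at 655, 728 and 863 CPM in DMSO and 658, 695 and 839 after cisplatin, and at 905, 945 and 1096 after AU-15330 and 872, 931 and 1106 in the combination. Each group with AU-15330 lay above each group without it. The increase was 0.36 ± 0.08 for AU-15330 against DMSO and 0.41 ± 0.08 for the combination against cisplatin (edgeR adjusted p = 0.000251 and 7.17e-05). Atp5d, the delta subunit of the same head, was instead lower in all 3 treatments: 206 CPM at the median in DMSO (144 to 268), 139.7 after cisplatin (122 to 162), 152 after AU-15330 (149.5 to 188) and 154 in the combination (149 to 187). Its log2 fold change was -0.51 ± 0.11 for cisplatin (adjusted p = 0.000393), and the -0.34 ± 0.11 of AU-15330 and of the combination (adjusted p = 0.00846 and 0.00859) was not called when scaled by library totals (adjusted p = 0.098 and 0.116).

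The interaction term asks whether the effect of cisplatin in the presence of AU-15330 differed from its effect alone. It was called for 7 members, 6 with a positive and 1 with a negative term (8.97%, beside 33.7% of all genes tested, 17.9% positive and 15.8% negative). The members were Sdhc (0.58 ± 0.13), Atp5d (0.51 ± 0.16), Cox7a2l (0.49 ± 0.18), Atp5g1 (0.41 ± 0.13), Uqcrc2 (0.23) and Cox6a2 with a positive term, and Ndufa4 (-0.56 ± 0.18) with a negative one. Cox6a2 had 9 reads in the 6 AU-15330 libraries, 4 of them in replicate 1 and the others spread at under 3 reads a library, which left hardly a level from which cisplatin could have lowered it, and its term is not read as a difference in the effect of cisplatin. For Sdhc, Atp5d and Cox7a2l the decrease with cisplatin was smaller in the presence of AU-15330, and for Ndufa4 the same held of the increase. The count of positive terms depended on the setting, with 3 by library totals and 13 in the blocked fit (17.9% of members called in all, beside 41% of all genes). The call for Cox7a2l (edgeR adjusted p = 0.0365) was lost without replicate 1 (0.0941), with library totals (0.0712), with DESeq2 size factors (0.0517) and without the low-count filter (0.0576). That for Uqcrc2 (0.0205) was lost with library totals (0.0839) and without the filter (0.0818), and that for Atp5g1 (0.0202) with library totals (0.0626).

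Positions in the reference were found for 82 members. For 43 of them no 70-base window occurred in another annotated gene, and 1, Atp5l, had most of its windows, 78.3%, in others, Atp5l2-ps among them. Exons overlapped another gene on the opposite strand in 25 members and on the same strand in 5. Ndufs5 had no read in any library. Of its windows 16.9% occur in BC002163, and what gave the 0 was not tested.

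Genes that build or serve the complexes were counted from lists, beside which all genes tested had 26% higher and 25.7% lower after cisplatin, 36.2% and 37.2% after AU-15330, and 35.4% and 32.7% in the combination against cisplatin. Cytochrome c (Cycs) and cytochrome c1 (Cyc1, the complex III subunit outside the rule) passed no test for cisplatin against DMSO, and Cyc1 was lower with AU-15330 (-0.20). Cycs was higher in the combination than with AU-15330 (0.49, edgeR adjusted p = 0.000983), at 13.2 to 17.4 CPM beside 9.19 to 13.3, and its interaction term passed as well (0.44, adjusted p = 0.033). Of 15 assembly factors of complex I, cisplatin lowered 5 (Nubpl, Ndufaf8, Ndufaf3, Ndufaf7 and Acad9) and raised 1 (Tmem186), AU-15330 raised 8 and lowered 3 (Ndufaf4, Nubpl and Timmdc1), and the combination was higher than cisplatin in 7, up to 1.05 for Ndufaf8. Of 19 assembly factors of complex IV, cisplatin lowered 5 (Cox16, Cmc1, Cox20, Coa6 and Cox14) and raised Cox15, AU-15330 raised 9 and lowered 3 (Cox19, Cmc1 and Sco1), and the combination was higher than cisplatin in 9 and lower in 1 (Cox19). Of 17 genes of the pyruvate dehydrogenase complex and the citric acid cycle, which feed the chain with electrons, cisplatin lowered 11, led by Suclg2 (-0.46), and AU-15330 raised 8 and lowered 4 (Dlst, Idh3g, Dld and Pdha1). The combination was higher than cisplatin in 10 of the 17, led by Suclg2 (0.75) and Mdh2 (0.75), and lower in 4 (Idh3g, Dlst, Dld and Pdha1). In these comparisons, in the same order, the share called in either direction was 40%, 73.3% and 46.7% for the complex I factors and 31.6%, 63.2% and 52.6% for the complex IV factors. It was 64.7%, 70.6% and 82.4% for the dehydrogenase and cycle genes, where all genes tested had 51.7%, 73.4% and 68.1%. Among 4 carriers of the inner membrane, AU-15330 raised the ADP/ATP exchangers Slc25a5 (1.00) and Slc25a4 (0.68) and lowered the uncoupling protein Ucp2 (-3.97).

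Ppargc1a, a coactivator known for driving the transcription of these subunit genes, was at 21.4, 31.2 and 60.1 CPM in DMSO and 31.9, 53.8 and 55.9 after cisplatin. AU-15330 libraries had 8.87, 11.8 and 15.4 CPM and combination libraries 7.46, 7.56 and 8.27, below all libraries without AU-15330. Its log2 fold change was -1.65 ± 0.2 for AU-15330 against DMSO and -2.66 ± 0.21 for the combination against cisplatin (edgeR adjusted p = 4.48e-08 and 1.51e-11). Its relatives went up: Pprc1 by 0.48 and 1.00 in the same comparisons and Ppargc1b by 0.86 and 0.53. Of the factors that bind promoters of these genes, Gabpa was higher (0.47 and 0.27), Yy1 was lower (-0.48 and -0.22), Esrra was lower in the combination against cisplatin (-0.32), and Nrf1 passed no test in either comparison (0.07 and 0.09, adjusted p = 0.363 and 0.24). Tfb1m, which serves mitochondrial ribosomal RNA, was higher as well (1.12 and 1.25). Of 13 regulators listed, cisplatin lowered 3 (Tfb2m, Yy1 and Polg), AU-15330 raised 4 (Tfb1m, Ppargc1b, Pprc1 and Gabpa) and lowered 3 (Ppargc1a, Yy1 and Polg), and the combination was higher than cisplatin in 5 (these 4 and Tfb2m) and lower in 3 (Ppargc1a, Esrra and Yy1). The shares of regulators called, 23.1%, 53.8% and 61.5%, were below those of all genes in each of the 3.

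Promoter windows of RefSeq, from 250 bases before to 50 after the start, were found for 69 members and searched on both strands. The core of the NRF1 site, CGCATGCG, was in 9 of these members, Atp5g2, Cox6a1 and Uqcrc1 among them, and in 2.07% of 27025 genes. The ETS site CCGGAAG, the kind bound by GABPA, was in 17 members (24.6%) and in 9.93% of genes, and the YY1 site AAGATGGCG in 7 members (10.1%) and in 1.64% of genes. Among the members named above, Ndufb6, Ndufs8, Sdhb, Sdhd, Uqcrh, Uqcr11, Cox6a1, Cox6b1, Cox8a and Atp5l held the ETS site, and the windows of Atp5g1, Ndufa4 and Cox7a2l held none of these letters. The Cox7a2l window lies inside the GENCODE gene, and the bases before its GENCODE start were not searched. These matches describe the sequence and were not related to the changes by any test.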

How the data were processed

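RNA was measured in 24 libraries of ID8 P53 KO cells, 6 for each of 4 treatments, from poly(A)-enriched, strand-specific NEBNext Ultra II libraries. The values are raw counts per gene symbol deposited by the authors, with each of 2 sequencing lanes in its own column; the submitters' processing notes name STAR 2.7.1a, DESeq2 1.36.0 and the mm10 build, and the counting tool, its strand setting and the annotation are not given in the sources used here. The lanes of a library were summed (chi-square per degree of freedom between lanes 1.36 to 1.46). Groups came from the labels.

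Members of the gene group and all gene lists were chosen with earlier results of these data known. Genes passing filterByExpr (12941 of 25229) were scaled by TMM and fitted with edgeR 4.0.16 in R 4.3.3 (glmQLFit and glmQLFTest, one mean per treatment, all libraries), with Benjamini-Hochberg adjustment over all genes tested in each of 5 comparisons of groups and for the interaction. Errors are standard errors of the log2 fold change. CPM use TMM-scaled totals, a log2 CPM a prior count of 2. A TMM-scaled CPM is relative to the other genes of a library. Genes were named if on a list of core subunits, paired isoforms and regulators, or if among the 3 largest increases or decreases called in a comparison with an average log2 CPM of 2 or more; other genes named were listed because few were counted, and were chosen after their values were seen. Alternatives were DESeq2 size factors within edgeR, library totals, no filter, the DESeq2 1.42.0 Wald test, the replicate number as a block, omission of replicate 1, and a test against a fold change of 1.2. By their deviations from the group means, and not by the labels, same-numbered libraries of AU-15330 and the combination were taken as paired. Their correlation was over 0.1 in 6 of 6 pairs, at 0.483 for replicate 1 and 0.101 to 0.203 for the others. Between the other groups 2 to 5 of 6 pairs were over 0.1. Blocked counts of all comparisons of groups stand beside the main ones. The procedure was tested on simulated data. Sequences and positions came from GENCODE M21 and RefSeq GRCm38.p6.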

Additional observations from a re-analysis of the deposited data

Results flagged for a closer look

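In groups of 6 libraries, a value was singled out when its gap to the nearest other library as a share of the range of the group exceeded Dixon's 95% limit. Of 132 groups of values, 21 were singled out, where chance gives about 1 in 20 (6.6), and 20 of the 21 were replicate 1. The gaps, as a share of the range, were as follows. In summed CPM they were 0.646 (AU-15330) and 0.659 (combination) for complex I, 0.639 (AU-15330) for complex IV, and 0.693 (AU-15330) and 0.659 (combination) for complex V. For single genes in AU-15330 they were 0.696 for Atp5b, 0.641 for Atp5g3, 0.639 for Cox4i1, 0.686 for Cox8a and 0.79 for Uqcrc1. In the combination they were 0.637 for Atp5b, 0.626 for Atp5g2, 0.657 for Cox4i1, 0.735 for Cox7b, 0.742 for Ndufs8, 0.636 for Sdhb and 0.64 for Sdhd. In DMSO they were 0.668 for Cox6b1, 0.809 for Cox7a1 and 0.674 for Cox7b. The exception to replicate 1 was Cox7a1 in the combination, where replicate 4 was the highest by 0.66 of the range.

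The interaction term of the edgeR fit, for a difference in the effect of cisplatin with and without AU-15330, passed for Atp5d (0.51 on the log2 scale, adjusted p = 0.0131), Atp5g1 (0.41, adjusted p = 0.0202), Cox7a2l (0.49, adjusted p = 0.0365), Ndufa4 (-0.56, adjusted p = 0.0166) and Sdhc (0.58, adjusted p = 0.00093), and for Uqcrc2 (0.23, adjusted p = 0.0205). Over the alternatives the adjusted p of Cox7a2l reached 0.0941 and it was lost in 4 of them, that of Uqcrc2 reached 0.0839 and that of Atp5g1 0.0626. The term also passed for Cox6a2 (4.48, adjusted p = 0.00377), where the AU-15330 libraries held 9 reads in all, so that a smaller decrease there could not be told from the limit of detection.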

How the results depend on the processing

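Of 65 called changes of named genes, 64 stayed called with DESeq2 size factors, 65 with the DESeq2 Wald test, 65 with the replicate block, 62 without the filter, 54 with library totals and 61 without replicate 1, and none turned its direction. Of 30 medians of complexes, 7 moved by more than the spread with library totals and 0 did so elsewhere. Counts of members given next are those that moved by over 1.5 times. With library totals, AU-15330 against DMSO had 20 higher and 7 lower, and the combination against DMSO 18 higher and 11 lower. The interaction had 3 positive terms (5.13% of members called in all, beside 33.2% of all genes). Without the filter, 13 members were higher in the combination than in cisplatin (16.9% called in all, beside 47.7% of all genes). The DESeq2 Wald test had 2 higher in the combination than in AU-15330 (11.4% called in all, beside 38.9%). Against a fold change of 1.2, cisplatin had 12 lower, AU-15330 4 higher and 6 lower, the combination 6 higher than cisplatin, 4 higher and 9 lower than DMSO, and 0 higher and 0 lower than AU-15330 (edgeR; 0 and 1 at an unadjusted p under 0.05; DESeq2 against no change called 2 and 7), and the interaction had 2 positive and 0 negative terms (4 and 1 at an unadjusted p under 0.05; DESeq2 called 7 and 1). By the test against a fold change of 1.2, all genes had 12.2% lower after cisplatin, and 28% higher and 28.9% lower after AU-15330. The combination had 24.1% higher than cisplatin, 28.4% higher and 28.3% lower than DMSO, and 12.1% higher and 6.86% lower than AU-15330. The interaction had 9.28% positive and 9.99% negative terms. Without replicate 1, cisplatin had 3 higher, AU-15330 19 higher, and the combination 2 lower than cisplatin and 2 higher and 14 lower than AU-15330. The criterion for pairing, every same-numbered pair with correlated deviations over 0.1, was met by AU-15330 and the combination and by no other 2 groups, where AU-15330 and cisplatin came closest with 5 of 6 pairs. Over all groups 23 of 36 pairs were over 0.1 (-0.133 to 0.483), and 10 of 24 libraries were closest to their own number. With the number as a block, cisplatin had 2 higher, AU-15330 18 higher, the combination 2 lower than cisplatin, 4 higher and 13 lower than AU-15330 and 14 higher than DMSO, and the interaction 13 positive terms. Cause of these moves was not tested. At fewer than 3 reads in a library, or 0.12 to 0.186 CPM by its size, levels were not told from 0.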
